A study of Mus musculus with 10 samples.

Results

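The SLAM family is a small group of immune cell surface receptors of the immunoglobulin superfamily, and 8 of its genes were followed here across 10 RNA-sequencing libraries of whole mouse lung. The genes are Slamf1, Slamf6, Slamf7, Slamf8, Slamf9, Ly9, Cd48 and Cd84, taken by gene symbol from a table of 53342 genes. They were chosen by their measured values, because Slamf6 and Slamf7 had moved in opposite directions with the compound SF-3-030, so every value of the family in comparisons with that compound is a description and carries no test. All 8 genes had enough reads to be tested, among 26235 genes that had. The SF-3-030+HDM group (n = 3) received intranasal SF-3-030 (10 mg/kg), followed after 30 min by house dust mite allergen (HDM), 5 days per week for 3 weeks. The HDM group (n = 3) was given the allergen on the same schedule, with the solvent DMSO named in its label. The PBS group (n = 4) was given saline, and its label names no DMSO. The series title ties SF-3-030 to function-selective targeting of ERK1/2, a pair of growth signal kinases. All mice are labelled as female BALB/c animals of 12 weeks, no group was given the compound alone. Whether replicates came from separate animals is not stated. The p-values below therefore measure the spread between samples, which may be technical.

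Most SLAM receptors bind a copy of themselves on a neighbouring cell, so that contact between leukocytes sets off signals in both partners. CD48 differs in that it is tethered to the membrane by a lipid anchor and serves as the ligand of CD244 and CD2. Inside the cell, SLAM receptors with tyrosine switch motifs bind the small adaptors SAP (Sh2d1a) and EAT-2 (Sh2d1b1), or phosphatases such as SHP-1 (Ptpn6), and the balance between them sets whether the cell is activated or restrained. SLAMF8 and SLAMF9 have short tails without that switch motif and are found mainly on myeloid cells. In allergic lung, the family's known carriers are the T cells, B cells, plasma cells, NK cells, macrophages and dendritic cells that enter or expand in the tissue.

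Several libraries stand apart from their labels. The pseudogene-annotated H2-Ea-ps, whose transcript is missing from strains such as C57BL/6 and present in strains such as BALB/c, had 331 to 432 CPM (counts per 1000000 reads) with SF-3-030 and 0.107 to 0.953 CPM in the 7 libraries of the HDM and PBS groups. Trim12a ran the other way, at 0.199 to 0.363 CPM in SF-3-030+HDM libraries and 18.7 to 30.6 CPM in the other 7. SF-3-030 treatment and this difference between the libraries cannot be told apart. Since all mice are labelled BALB/c, it is the low H2-Ea-ps of the 7 HDM and PBS libraries that departs from the label. Inbred mouse strains are known to carry different versions of the SLAM gene cluster, and the reads were aligned to the C57BL/6J genome. In addition, 3 libraries (HDM replicates 2 and 3 and PBS replicate 2) held the Y-linked gene Ddx3y at 20.4 to 31.5 CPM against the female label, while no other library exceeded 0.575 CPM. Summed olfactory and vomeronasal receptor reads, which lung is not expected to make, were at 16.0 to 32.6 CPM in SF-3-030+HDM, 90.4 to 230 CPM in HDM and 49.2 to 469 CPM in PBS libraries, highest in PBS replicates 1 and 4 and HDM replicate 3.

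All 8 genes lie on mouse chromosome 1 (GRCm38). Ly9, Slamf7, Cd48, Slamf1, Cd84 and Slamf6 form 1 cluster which, counted from the related receptor gene Cd244, spans 394 kb, and Slamf9 and Slamf8 lie apart, with Slamf9 starting 522 kb past the end of Slamf6. Slamf7 is annotated at chr1:171632403-171653035 on the minus strand and Slamf6 at chr1:171917515-171953170 on the plus strand. The promoter windows of Slamf6, Slamf7 and Slamf8 are shown because the first pair moved in opposite directions with SF-3-030 and because Slamf8 holds matches to the most motifs in the family. Each window runs from 250 bases before to 50 bases after a RefSeq start (GRCm38.p6, the C57BL/6J sequence), written 5′ to 3′ in the direction of the gene, with motif matches in capitals.
Slamf6, chr1:171917212-171917511, plus strand: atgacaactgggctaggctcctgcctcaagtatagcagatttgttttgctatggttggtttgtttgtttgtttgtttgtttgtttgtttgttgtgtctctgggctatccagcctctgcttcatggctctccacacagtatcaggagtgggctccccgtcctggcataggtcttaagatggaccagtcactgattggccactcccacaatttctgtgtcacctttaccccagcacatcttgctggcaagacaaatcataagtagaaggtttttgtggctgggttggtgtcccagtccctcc
Slamf7, chr1:171648950-171649249, minus strand: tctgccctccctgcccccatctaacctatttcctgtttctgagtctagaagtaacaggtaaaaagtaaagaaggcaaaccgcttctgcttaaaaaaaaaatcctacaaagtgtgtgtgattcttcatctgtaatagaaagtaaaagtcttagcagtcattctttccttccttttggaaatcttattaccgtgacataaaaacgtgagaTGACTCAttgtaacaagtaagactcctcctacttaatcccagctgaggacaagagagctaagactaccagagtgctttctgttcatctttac
Slamf8, chr1:172590519-172590818, minus strand: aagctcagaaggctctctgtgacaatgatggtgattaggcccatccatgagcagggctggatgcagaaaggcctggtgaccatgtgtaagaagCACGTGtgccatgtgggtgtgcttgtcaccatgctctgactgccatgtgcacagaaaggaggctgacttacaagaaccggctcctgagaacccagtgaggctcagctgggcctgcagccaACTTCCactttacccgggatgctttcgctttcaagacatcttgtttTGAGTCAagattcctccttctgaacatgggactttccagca

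The RefSeq start of Slamf7 lies inside the longer gene model of GENCODE. The Slamf6 window ends just before the GENCODE start of that gene, so it holds no base of that gene model. Motifs were searched on both strands as the letter patterns TGANTCA for AP-1, GGAAGT for ETS factors, CACGTG for the E-box and TATAAA for the TATA box. AP-1, a pair of factors of the Fos and Jun families, is a well known nuclear output of ERK signalling. The Slamf7 window held 1 AP-1 match, TGACTCA, 42 bases before the start. The Slamf6 window held none of these letter patterns, which says only that they are not in this window. Slamf8 held the patterns of AP-1, ETS and the E-box. Of the 7 members with a window in the table, Slamf7, Slamf8 and Cd84 held the AP-1 pattern, which 7.81% of all 32851 windows also hold. The shares of all windows were 23.8% for ETS, 7.15% for the E-box and 13.6% for the TATA box. No promoter sequence is shown for Ly9. The AP-1 and E-box patterns read the same on both strands and were counted once, no match overlapped that of another motif, and a match is a description of letters, not of binding.

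In HDM against PBS, the question was which SLAM receptors are higher in lungs given allergen. All 8 were higher in every HDM library than in every PBS library, and 5 of 8 rose by edgeR's quasi-likelihood test at an adjusted p of 0.05, namely Slamf7, Slamf8, Cd84, Ly9 and Slamf6. Over all genes tested, 2.61% were called (2.32% higher and 0.294% lower), and 5.28% were non-overlapping and higher. The 5 include Slamf7 and Slamf6, whose values in these HDM libraries were used to choose the family. The counts of members and their median may be shifted by that choice. The members' median log2 fold change was 1.33, against -0.0947 over all genes. In bulk tissue, more cells of a type and more RNA per cell cannot be told apart, and the T cell, B cell, plasma cell, dendritic cell, and macrophage and monocyte marker sums, given further on, were also higher in every HDM library than in every PBS library.

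Slamf7, a self-binding receptor of NK cells, plasma cells and activated myeloid cells, had 36.3, 41.0 and 29.6 CPM in HDM libraries, against 6.27, 11.2, 6.18 and 6.38 CPM in PBS libraries. The groups were far apart, and PBS replicate 2 stood above the other 3 PBS libraries. Its rise was the largest of the family, at a log2 fold change of 2.30 ± 0.25 (SE, 4.93-fold, adjusted p = 0.00104 by edgeR). These HDM libraries are also the ones that Slamf7 and Slamf6 were set against when they were chosen. That choice favoured high Slamf7 and low Slamf6 in HDM libraries. The fold change, rank and adjusted p of both genes in HDM against PBS may be shifted by it.

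Cd84, a self-binding receptor of B cells, helper T cells, mast cells and platelets, had 64.9, 54.9 and 42.2 CPM in HDM libraries, against 18.6, 16.7, 16.7 and 15.7 CPM in PBS libraries. The PBS libraries were tightly grouped and all HDM libraries were well above them. Cd84 rose by a log2 fold change of 1.73 ± 0.17 (3.32-fold, adjusted p = 0.000566 by edgeR). Ly9, the self-binding receptor CD229 of T and B cells, had 30.6, 34.8 and 24.2 CPM in HDM libraries and 11.2, 11.7, 9.70 and 7.85 CPM in PBS libraries. No library overlapped, and Ly9 rose by 1.63 ± 0.19 on the log2 scale (3.09-fold, adjusted p = 0.00145 by edgeR). Ly9 lies within the span of Cd244 on the opposite strand, and the strand of the libraries is not given in the sources used here, so reads of the pair may be mixed. Cd244 itself averaged 6.65 ± 2.10 CPM in HDM (SD, n = 3) and 5.81 ± 0.75 CPM in PBS (n = 4), and did not pass the test (log2 fold change 0.25, adjusted p = 0.906 by edgeR).

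Slamf8, a myeloid receptor known for restraining NADPH oxidase activity in phagosomes, had 10.4, 10.3 and 14.6 CPM in HDM libraries, against 4.75, 3.84, 2.35 and 2.50 CPM in PBS libraries. The lowest HDM library was still above the highest PBS library, and Slamf8 rose by 1.88 ± 0.28 on the log2 scale (3.68-fold, adjusted p = 0.00443 by edgeR). Slamf6 (Ly108), a self-binding receptor of T, B and NK cells, had 11.9, 9.59 and 10.4 CPM in HDM libraries, against 8.12, 5.09, 4.02 and 4.78 CPM in PBS libraries. The gap was narrow, since PBS replicate 1 lay close to HDM replicate 2. Slamf6 rose by 1.02 ± 0.22 (2.03-fold, adjusted p = 0.0325 by edgeR), the smallest change among the 5 called.

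The other 3 members did not pass the edgeR threshold. Slamf1 (CD150), a self-binding receptor of activated T and B cells and of myeloid cells, had 3.44, 3.91 and 3.11 CPM in HDM libraries and 2.65, 1.44, 1.91 and 2.05 CPM in PBS libraries (log2 fold change 0.87 ± 0.21, adjusted p = 0.0557 by edgeR). Slamf9, found on macrophages and dendritic cells, had 15.1, 19.0 and 18.5 CPM in HDM libraries and 13.0, 6.99, 10.9 and 8.04 CPM in PBS libraries (0.92 ± 0.24, adjusted p = 0.0758 by edgeR). Cd48, the widely expressed ligand, had 21.1, 21.9 and 17.9 CPM in HDM libraries and 17.6, 15.0, 10.0 and 8.68 CPM in PBS libraries (0.74 ± 0.21, adjusted p = 0.118 by edgeR). In all 3 genes the HDM libraries were above every PBS library, with the smallest gap for Cd48.

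The calls were not equally firm, and Slamf6 lost its call in 12 of 21 alternative analyses and Slamf8 in 3. Slamf7, Ly9 and Cd84 kept theirs in each of 21 alternative analyses, with adjusted p of at most 0.0179, 0.0153 and 0.00919. Without the 3 Y-linked libraries, which leaves HDM with 1 library, 3 members were called, and Slamf6 (log2 fold change 1.09, adjusted p = 0.447 by edgeR) and Slamf8 (1.73, adjusted p = 0.118) were not. Without the 3 libraries with the most olfactory and vomeronasal reads, 3 members were called as well, with Slamf6 at an adjusted p of 0.0817 and Slamf8 at 0.0578 by edgeR. Without PBS replicate 1, all 8 were called. None of these alternatives undoes the choice of the family, which used Slamf7 and Slamf6 values in HDM libraries. Their calls here may be shifted by it as well.

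**Figure D1:**
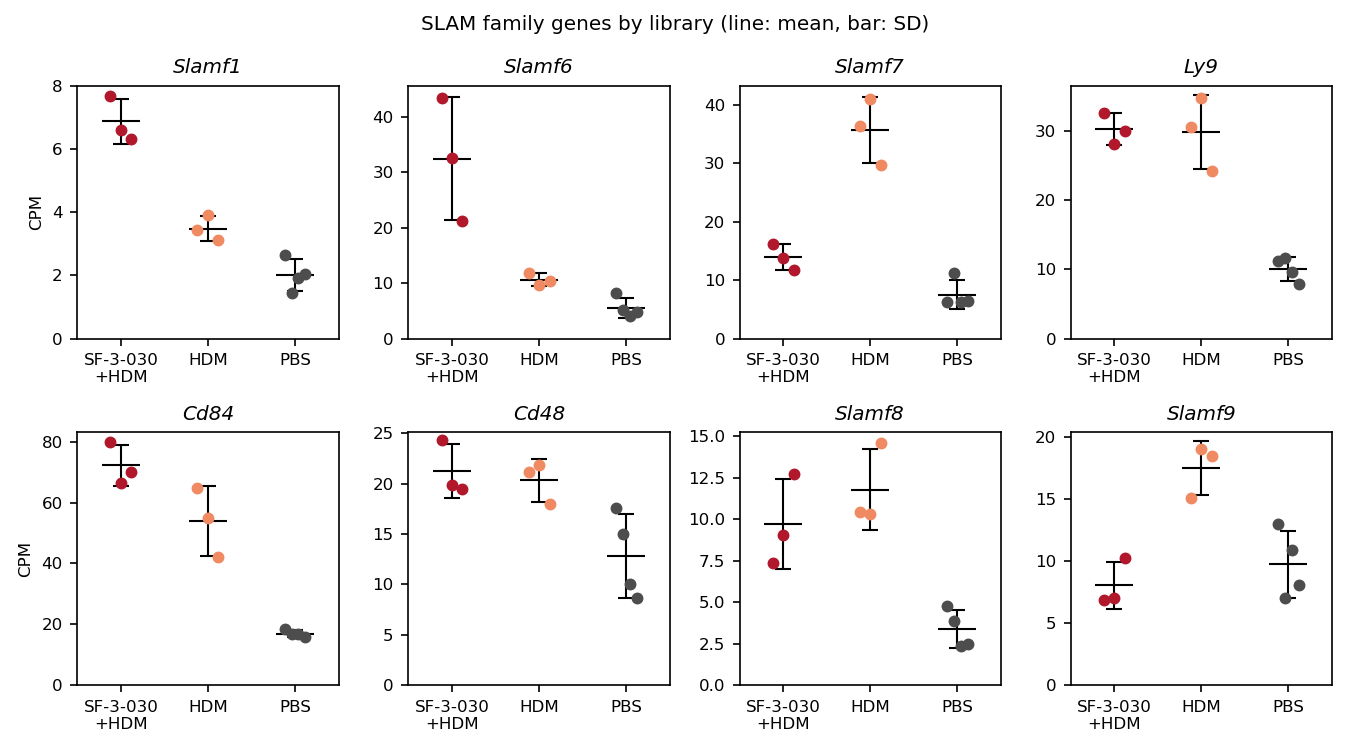
Expression of each SLAM family gene in CPM (y axis, linear and starting at 0, scaled per gene) in the SF-3-030+HDM, HDM and PBS groups (x axis). Points are libraries, the line is the mean and the bar the SD. Slamf6 lies highest in SF-3-030+HDM, at 21.2 to 43.4 CPM, and Slamf7 highest in HDM, at 29.6 to 41.0 CPM.

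In SF-3-030+HDM against HDM, the family divided into 3 patterns, given here as a description because this contrast chose the genes. Slamf6, Slamf1 and Cd84 were higher in every SF-3-030+HDM library than in every HDM library, Slamf7 and Slamf9 were lower in every one, and Slamf8, Ly9 and Cd48 overlapped. Over all genes tested, 15.1% were non-overlapping and higher and 22.4% were non-overlapping and lower in this comparison, while 3.43% were called higher and 6.06% called lower. The members' median log2 fold change was 0.01, against -0.0344 over all genes.

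Slamf6 had 43.4, 32.6 and 21.2 CPM in SF-3-030+HDM libraries, against 11.9, 9.59 and 10.4 CPM in HDM libraries. The SF-3-030+HDM libraries differed among themselves by a wider margin than the HDM libraries, and the lowest of them was above all HDM libraries. The log2 fold change was 1.57 ± 0.24 (SE). Slamf1 had 7.69, 6.62 and 6.33 CPM in SF-3-030+HDM libraries, against 3.44, 3.91 and 3.11 CPM in HDM libraries, a log2 fold change of 0.95 ± 0.23. Cd84 had 79.9, 66.6 and 70.3 CPM in SF-3-030+HDM libraries, against 64.9, 54.9 and 42.2 CPM in HDM libraries. Its groups were separated by a narrow margin, with a log2 fold change of 0.40 ± 0.18.

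Slamf7 went the other way, with 16.1, 13.8 and 11.7 CPM in SF-3-030+HDM libraries, against 36.3, 41.0 and 29.6 CPM in HDM libraries. No SF-3-030+HDM library came near the HDM range, and the log2 fold change was -1.40 ± 0.27. Slamf9 had 6.88, 6.98 and 10.2 CPM in SF-3-030+HDM libraries, against 15.1, 19.0 and 18.5 CPM in HDM libraries, with a log2 fold change of -1.14 ± 0.26. Both genes were thus low in all 3 SF-3-030+HDM libraries.

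Slamf8 had 7.39, 9.05 and 12.7 CPM in SF-3-030+HDM libraries, against 10.4, 10.3 and 14.6 CPM in HDM libraries, a log2 fold change of -0.27 ± 0.29. Ly9 had 32.7, 28.2 and 30.1 CPM in SF-3-030+HDM libraries, against 30.6, 34.8 and 24.2 CPM in HDM libraries (-0.01 ± 0.21). Cd48 had 24.3, 19.9 and 19.5 CPM in SF-3-030+HDM libraries, against 21.1, 21.9 and 17.9 CPM in HDM libraries (0.03 ± 0.23). The libraries of both groups were interleaved for these 3 genes, and the sign of the fold change of Ly9 and Cd48 depended on the alternative used. Within the SF-3-030+HDM group, replicate 3 had the lowest Slamf6 and the highest Slamf8 and Slamf9, and it also had the highest macrophage and monocyte marker sum, at 835 CPM, against 515 and 479 CPM in replicates 1 and 2. The part of that sum in the Slamf8 and Slamf9 values was not tested.

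Over the 21 alternatives, the log2 fold change in SF-3-030+HDM against HDM ran from 1.36 to 1.78 for Slamf6, from 0.81 to 1.12 for Slamf1, from -1.56 to -1.08 for Slamf7 and from -1.40 to -0.83 for Slamf9. Without the Y-linked libraries it was 1.50 for Slamf6, -1.33 for Slamf7 and -0.83 for Slamf9, against the single HDM library that remained. Without the 3 libraries with the most olfactory and vomeronasal reads it was 1.52 for Slamf6 and -1.56 for Slamf7. No alternative separates the compound from the difference in H2-Ea-ps and Trim12a.

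**Figure D2:**
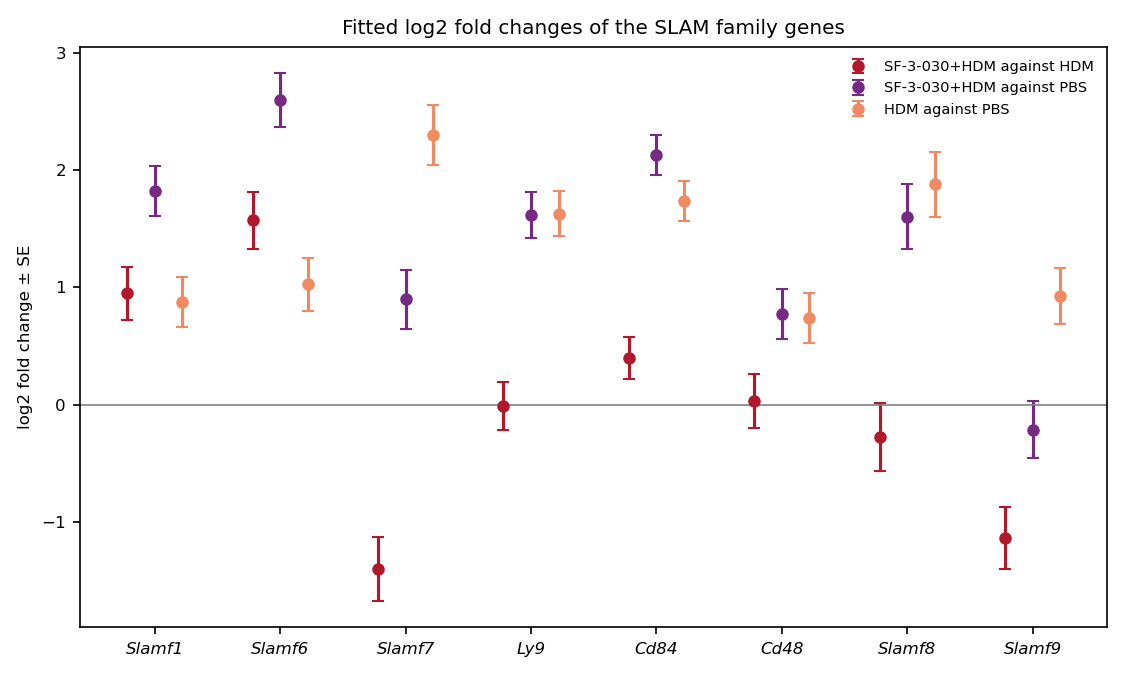
Fitted log2 fold change (y axis) of each SLAM family gene (x axis) in SF-3-030+HDM against HDM, SF-3-030+HDM against PBS and HDM against PBS, with bars of 1 SE. Slamf6 and Slamf7 lie on opposite sides of 0 in SF-3-030+HDM against HDM, at 1.57 and -1.40, and both lie above 0 in HDM against PBS, at 1.02 and 2.30.

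Set against PBS, 7 of 8 members were higher in every SF-3-030+HDM library, where 17.0% of all genes were non-overlapping and higher. This comparison shares its SF-3-030+HDM libraries with the contrast that chose the genes and its PBS libraries with HDM against PBS. The log2 fold change was 2.60 ± 0.23 for Slamf6, 2.13 ± 0.17 for Cd84, 1.82 ± 0.21 for Slamf1, 1.62 ± 0.19 for Ly9, 1.60 ± 0.28 for Slamf8, 0.90 ± 0.25 for Slamf7 and 0.77 ± 0.21 for Cd48. Slamf7 in SF-3-030+HDM libraries was therefore still above all PBS libraries, although its lowest library, at 11.7 CPM, was close to the 11.2 CPM of PBS replicate 2. Slamf9 was the exception, at 6.88, 6.98 and 10.2 CPM in SF-3-030+HDM libraries, against 13.0, 6.99, 10.9 and 8.04 CPM in PBS libraries. Its groups overlapped, with a log2 fold change of -0.21 ± 0.25. The members' median was 1.61, against -0.105 over all genes.

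Levels were compared between genes per kilobase of annotated exon, on the CPM per kb scale, which assumes that all annotated exons are used. Cd48 had the highest level in each group, at 17.8 ± 2.25 CPM per kb in SF-3-030+HDM, 17.1 ± 1.77 in HDM and 10.8 ± 3.52 in PBS (SD). Slamf1 was the lowest in each group, at 1.12 ± 0.12 CPM per kb in SF-3-030+HDM, 0.57 ± 0.07 in HDM and 0.33 ± 0.08 in PBS. In SF-3-030+HDM the order below Cd48 was Cd84, Ly9, Slamf9, Slamf8, Slamf7, Slamf6 and Slamf1, at mean levels of 11.5, 9.16, 6.12, 3.16, 3.03, 2.99 and 1.12 CPM per kb. Neighbours in it had separate libraries except for Slamf8 with Slamf7 and Slamf7 with Slamf6, which overlapped. In HDM the order below Cd48 was Slamf9, Ly9, Cd84, Slamf7, Slamf8, Slamf6 and Slamf1, at 13.4, 9.03, 8.61, 7.79, 3.83, 0.981 and 0.566 CPM per kb, where Ly9 overlapped Cd84 and Cd84 overlapped Slamf7. In PBS the order was the same as in HDM, at 7.41, 3.05, 2.70, 1.64, 1.09, 0.508 and 0.327 CPM per kb below Cd48, with overlaps of Cd48 with Slamf9, Ly9 with Cd84, Slamf7 with Slamf8 and Slamf6 with Slamf1.

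The family's summed level was 51.2 to 59.5 CPM per kb in SF-3-030+HDM libraries, 55.9 to 66.0 in HDM libraries and 21.3 to 35.1 in PBS libraries. The sums of the allergen groups overlapped while the make-up differed. Slamf7 took 5.51 ± 0.70% of the sum in SF-3-030+HDM, 12.7 ± 1.00% in HDM and 6.09 ± 1.96% in PBS (SD). Slamf6 took 5.41 ± 1.61% in SF-3-030+HDM, 1.61 ± 0.24% in HDM and 1.83 ± 0.32% in PBS. The ratio of the Slamf7 level to the Slamf6 level per kb was 0.877 to 1.30 in SF-3-030+HDM libraries, 6.72 to 10.1 in HDM libraries and 1.83 to 5.19 in PBS libraries, with no overlap between groups. The family was chosen because Slamf6 and Slamf7 part between SF-3-030+HDM and HDM. The separation of this ratio and of their shares between those groups follows from that choice. Cd84 took a larger part in SF-3-030+HDM, at 21.0 ± 0.41%, against 14.0 ± 2.44% in HDM and 10.0 ± 1.47% in PBS. Slamf9 took 11.2 ± 2.88% in SF-3-030+HDM, against 21.9 ± 3.33% in HDM and 27.2 ± 6.05% in PBS.

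**Figure D3:**
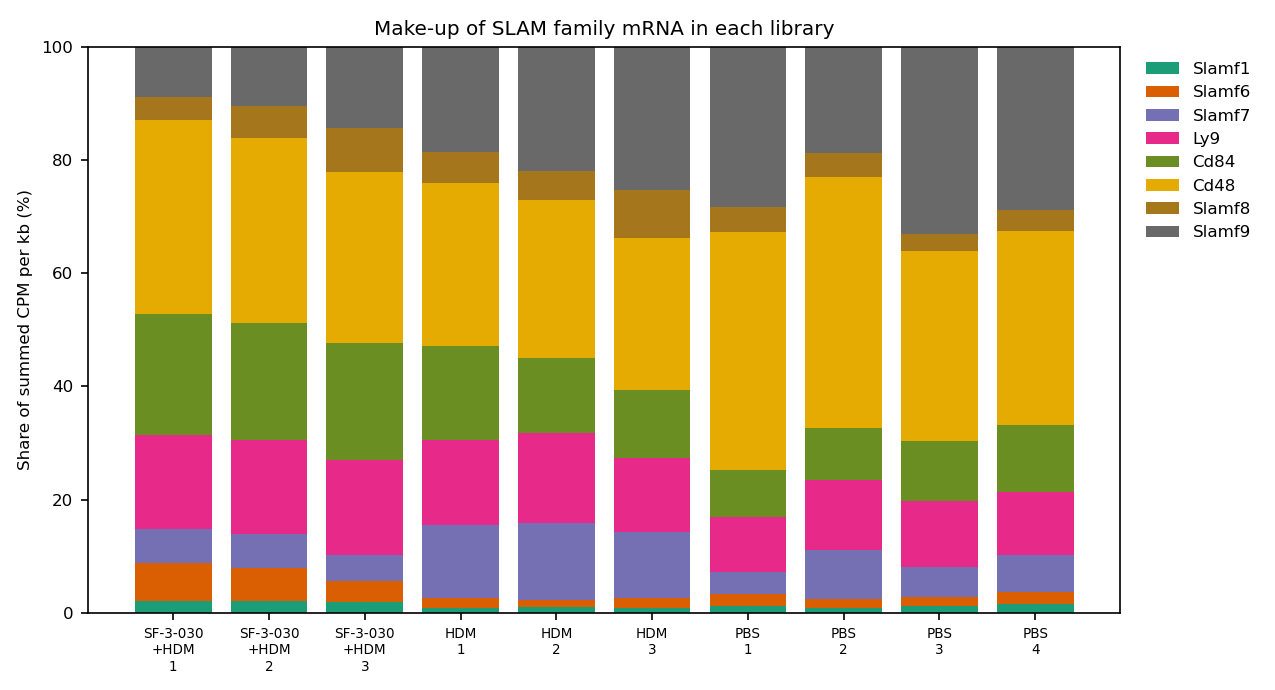
Share of each SLAM family gene in the summed CPM per kb of the 8 genes (y axis, %) in every library (x axis, SF-3-030+HDM replicates 1 to 3, HDM replicates 1 to 3 and PBS replicates 1 to 4). The Slamf6 band is widest in SF-3-030+HDM libraries, with a mean of 5.41%, and the Slamf7 band is widest in HDM libraries, with a mean of 12.7%.

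Some marker genes of the cells that carry these receptors differed between groups as well. The 7 B cell markers (among them Ms4a1 and Pax5) summed to 691 to 929 CPM in SF-3-030+HDM libraries, 335 to 486 CPM in HDM libraries and 154 to 239.9 CPM in PBS libraries, and 4 of 7 rose in SF-3-030+HDM against HDM by edgeR. Over all genes tested, 3.43% were called higher and 6.06% lower in that comparison, the background for each marker count below. The 10 T cell markers summed to 205 to 237 CPM in SF-3-030+HDM, 207 to 257 CPM in HDM and 92.4 to 165 CPM in PBS libraries. Of these 10, 0 were called in SF-3-030+HDM against HDM by edgeR. The 8 macrophage and monocyte markers summed to 479 to 835 CPM in SF-3-030+HDM, 656 to 701 CPM in HDM and 297 to 414 CPM in PBS libraries. Of these 8, 0 rose and 1 fell in SF-3-030+HDM against HDM by edgeR. Marco was at 0.0339 to 0.209 CPM in SF-3-030+HDM and 5.91 to 12.5 CPM in HDM libraries. Between SF-3-030+HDM and HDM libraries, the B cell sums were separate and the T cell, and macrophage and monocyte sums overlapped. The 8 plasma cell markers summed to 1915 to 2715 CPM in SF-3-030+HDM, 1960 to 2979 CPM in HDM and 596 to 1143 CPM in PBS libraries. By edgeR, 0 of the 8 plasma cell markers were called in SF-3-030+HDM against HDM. Jchain alone was at 1129 to 1876 CPM in SF-3-030+HDM, 1181 to 2065 CPM in HDM and 20.3 to 522 CPM in PBS libraries. The 7 dendritic cell markers summed to 297 to 421 CPM in SF-3-030+HDM, 246 to 367 CPM in HDM and 115 to 163 CPM in PBS libraries. Itgax alone was at 216 to 350 CPM in SF-3-030+HDM, 176 to 269 CPM in HDM and 44.3 to 98.8 CPM in PBS libraries. The dendritic cell sum, and the plasma cell sum in the allergen groups, thus rest to a large part on a single gene each. In PBS libraries Sdc1, at 311 to 416 CPM, and Xbp1, at 212 to 270 CPM, made up a large part of the plasma cell sum. That sum therefore differs in make-up between PBS and the allergen groups. The 7 NK cell markers summed to 73.8 to 98.2 CPM in SF-3-030+HDM, 44.2 to 54.9 CPM in HDM and 36.4 to 69.5 CPM in PBS libraries. They did not move together, since 2 of 7 rose and 1 of 7 fell in SF-3-030+HDM against HDM by edgeR. Gzma was at 33.8 to 53.0 CPM in SF-3-030+HDM and 17.0 to 19.9 CPM in HDM libraries. Klrb1c was at 2.20 to 2.59 CPM in SF-3-030+HDM and 4.03 to 6.20 CPM in HDM libraries. The 5 mast cell and basophil markers summed to 247 to 287 CPM in SF-3-030+HDM, 190.2 to 275 CPM in HDM and 251 to 320.02 CPM in PBS libraries, and 2 of 5 rose in SF-3-030+HDM against HDM by edgeR. Kit and Gata2 made up most of this sum. Kit was at 162 to 178 CPM in SF-3-030+HDM, 93.8 to 157 CPM in HDM and 64.5 to 133 CPM in PBS libraries. Gata2 was at 76.6 to 113 CPM in SF-3-030+HDM, 87.0 to 118 CPM in HDM and 143 to 194 CPM in PBS libraries. Cpa3, a mast cell protease, was at 4.04 to 5.54 CPM in SF-3-030+HDM and 0.611 to 0.708 CPM in HDM libraries. The 5 neutrophil markers summed to 179.8 to 207 CPM in SF-3-030+HDM, 75.7 to 117 CPM in HDM and 136 to 385 CPM in PBS libraries, so the allergen groups were separate, and 2 of 5 rose in SF-3-030+HDM against HDM by edgeR. No marker of these 8 lists was at 0 in any library. The 8 lung tissue markers summed to 43670 to 45744 CPM in SF-3-030+HDM, 46984 to 64460 CPM in HDM and 71444 to 78632 CPM in PBS libraries. The part of these changes in the receptor values was not tested, but each receptor was also set against the B cell, T cell, plasma cell, NK cell, macrophage and monocyte, and dendritic cell sums within its library.

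Slamf6 was 2.87 to 4.72% of the B cell sum in SF-3-030+HDM libraries and 1.97 to 3.54% in HDM libraries, so these ranges overlapped. Against the T cell sum it was 10.3 to 18.3% in SF-3-030+HDM and 3.74 to 5.73% in HDM libraries, which did not overlap, and neither did its ratios to the plasma cell, NK cell, macrophage and monocyte, and dendritic cell sums. The Slamf6 values in these ratios are those that chose the family, so their separation follows in part from that choice. Slamf1 was 0.828 to 0.958% of the B cell sum in SF-3-030+HDM and 0.806 to 1.03% in HDM libraries, which overlapped. Against the T cell sum it was 2.79 to 3.25% in SF-3-030+HDM and 1.29 to 1.66% in HDM libraries, which did not overlap. Its ratios to the NK cell and dendritic cell sums overlapped, while those to the plasma cell, and macrophage and monocyte sums did not. Cd84 was lower in SF-3-030+HDM than in HDM libraries relative to the B cell sum, at 8.60 to 9.64% and 11.0 to 19.4%. The ratios of Cd84 to the other sums overlapped. Ly9, Cd48 and Slamf8 were lower relative to the B cell and NK cell sums without overlap, and overlapped for the rest.

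Slamf7 was lower in SF-3-030+HDM than in HDM libraries relative to all 6 sums, with no overlap. The Slamf7 values in these ratios are those that chose the family, so this separation follows in part from that choice. The same HDM values enter the comparison with PBS below. Slamf7 was 0.510 to 0.714% of the plasma cell sum in SF-3-030+HDM and 1.38 to 1.79% in HDM libraries. It was 1.40 to 3.13% of the macrophage and monocyte sum in SF-3-030+HDM, against 4.23 to 6.26% in HDM libraries, and 2.77 to 5.32% of the dendritic cell sum in SF-3-030+HDM, against 8.85 to 16.7% in HDM libraries. Slamf9 was likewise lower relative to all 6 sums, at 1.22 to 1.46% of the macrophage and monocyte sum in SF-3-030+HDM and 2.20 to 2.90% in HDM libraries. For HDM against PBS, Slamf7 was higher relative to 5 of 6 sums without overlap, the exception being the dendritic cell sum, at 8.85 to 16.7% in HDM and 3.79 to 9.74% in PBS libraries. Slamf6 overlapped between HDM and PBS libraries for 5 of 6 sums, among them the T cell sum, at 3.74 to 5.73% in HDM and 3.09 to 5.69% in PBS libraries. The exception was the NK cell sum, at 17.5 to 24.2% in HDM and 7.32 to 13.2% in PBS libraries.

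**Figure D4:**
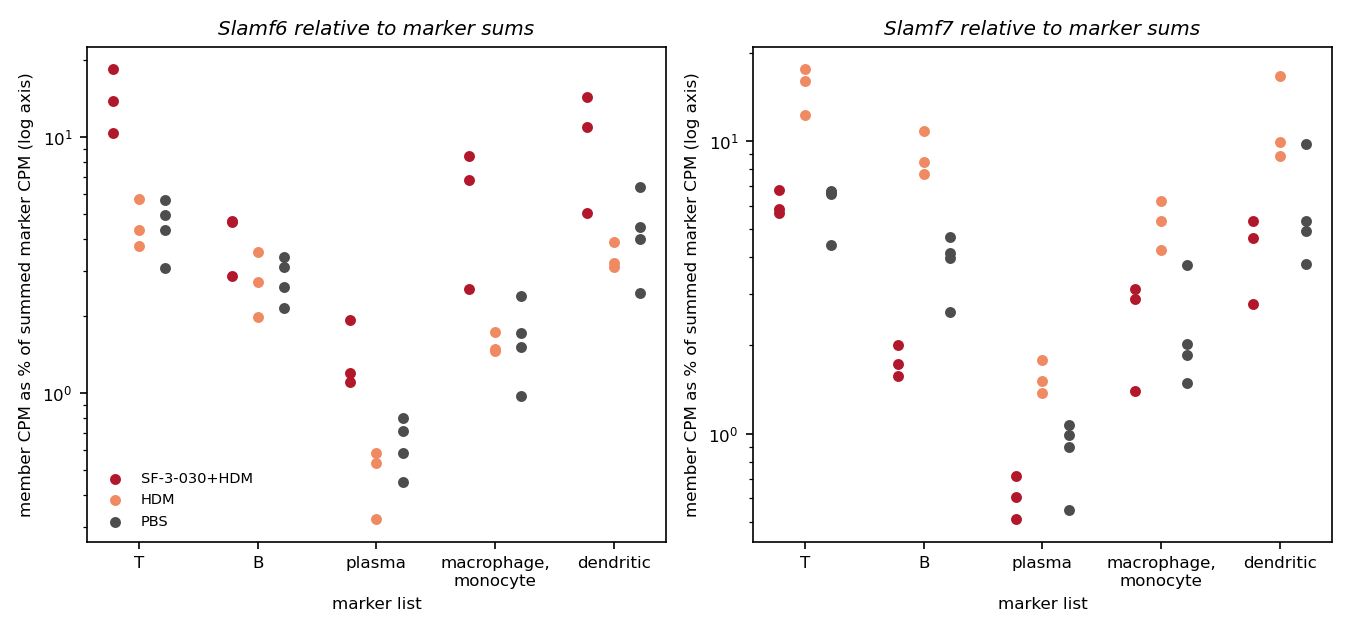
Slamf6 (left) and Slamf7 (right) CPM as a percentage of the summed CPM of marker genes of 5 cell types (x axis), on a log y axis, with 1 point per library for the SF-3-030+HDM, HDM and PBS groups. Slamf7 lies lower in SF-3-030+HDM than in HDM libraries for all 5 lists, and Slamf6 overlaps between these groups only for the B cell list, at 2.87 to 4.72% and 1.97 to 3.54%. These genes and groups chose the family, so the separation follows in part from that choice.

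The partners, adaptors and effectors of SLAM signalling formed a list of 18 other genes, all tested. In HDM against PBS, 4 of 18 rose by edgeR, where 2.32% of all genes were called higher. Vav1, the exchange factor that SLAM receptors engage in lymphocytes, averaged 53.0 ± 6.52 CPM in HDM and 24.3 ± 2.37 CPM in PBS (SD, n = 3 and n = 4), a log2 fold change of 1.19 ± 0.17 (SE, adjusted p = 0.00443 by edgeR). Cybb, the catalytic subunit of the phagocyte NADPH oxidase, averaged 194 ± 52.2 CPM in HDM and 64.0 ± 10.7 CPM in PBS (1.64 ± 0.26, adjusted p = 0.00663 by edgeR). Cd2, a CD48-binding receptor of T and NK cells, averaged 49.1 ± 4.35 CPM in HDM and 30.1 ± 6.78 CPM in PBS (0.78 ± 0.17, adjusted p = 0.0376 by edgeR). Sh2d1a, which encodes SAP, averaged 2.97 ± 0.64 CPM in HDM and 1.20 ± 0.41 CPM in PBS (1.38 ± 0.32, adjusted p = 0.0426 by edgeR). Without the Y-linked libraries 1 of 18 was called, and without the 3 libraries with the most olfactory and vomeronasal reads 2 of 18.

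In SF-3-030+HDM against HDM, 0 of 18 signalling genes were called by edgeR, where 9.49% of all genes were, and 0 had an unadjusted p under 0.05. DESeq2 and limma-voom also called 0. The log2 fold changes ran from -1.07 to 0.42, and the lowest value belonged to Sh2d1b2, at a mean of 0.155 CPM in SF-3-030+HDM and 0.335 CPM in HDM. In SF-3-030+HDM against PBS, 7 of 18 rose, where 29.9% of all genes were called (11.8% higher and 18.1% lower). These were Vav1 (log2 fold change 1.32), Cybb (1.17), Sh2d1a (1.15), Itgam (1.08), Ptpn6 (1.00), Lck (0.97) and Cd2 (0.63), with edgeR adjusted p from 0.000354 for Vav1 to 0.0203 for Cd2. Ptpn6, the phosphatase SHP-1, averaged 156 ± 16.1 CPM in SF-3-030+HDM, 125 ± 16.8 CPM in HDM and 79.9 ± 6.08 CPM in PBS. Lck, a Src kinase of T cells, averaged 57.5 ± 1.67 CPM in SF-3-030+HDM, 48.0 ± 8.07 CPM in HDM and 30.4 ± 10.6 CPM in PBS.

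Along chromosome 1, values in SF-3-030+HDM against HDM can be read in gene order. Slamf1, Cd84 and Slamf6, which follow each other at the distal end, all had positive values (0.95, 0.40 and 1.57), while Ly9, Slamf7 and Cd48 at the proximal end had values of -0.01, -1.40 and 0.03. Among 31 other tested genes with a start within 250 kb of the cluster, 3 rose and 1 fell in SF-3-030+HDM against HDM. Over all genes tested, 3.43% were called higher and 6.06% lower in that comparison. In HDM against PBS, 2 of the 31 rose, where 2.32% of all genes were called higher. Tma7-ps, a processed pseudogene between Cd48 and Slamf1, was at 13.4 to 14.9 CPM in SF-3-030+HDM libraries, against 0.710 to 1.51 CPM in HDM libraries (log2 fold change 3.83, adjusted p = 2.97e-05 by edgeR) and 0.675 to 1.33 CPM in PBS libraries. Itln1, beside Cd244 and coding for the lectin intelectin, was at 104 to 171 CPM in SF-3-030+HDM, 3.72 to 9.54 CPM in HDM and 0.169 to 1.13 CPM in PBS libraries, and rose in SF-3-030+HDM against HDM (4.53, adjusted p = 0.000319 by edgeR) and in HDM against PBS (3.18, adjusted p = 0.00429 by edgeR). Intelectin genes are known to differ in copy number between mouse strains. The other genes called near the cluster, named after their values were seen, were Gm9765 (higher) and Nhlh1 (lower) in SF-3-030+HDM against HDM and Arhgap30 (higher) in HDM against PBS.

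The nearest tested neighbours of Slamf6 did not pass the test in SF-3-030+HDM against HDM. Gm10521, on its Cd84 side, had a log2 fold change of 0.57 (adjusted p = 0.47 by edgeR), and Vangl2, on its distal side, had 0.56 (adjusted p = 0.121 by edgeR). Gm37787, annotated within Slamf7 on the opposite strand, averaged 0.625 CPM in SF-3-030+HDM, 1.23 CPM in HDM and 0.639 CPM in PBS (SF-3-030+HDM against HDM -1.01, adjusted p = 0.122 by edgeR). Its reads could be Slamf7 reads, since strand is not given, and they are few beside those of Slamf7. Around Slamf9 and Slamf8, 13 other genes were tested, of which 1 rose (Atp1a4) and 1 fell (Dusp23, log2 fold change -1.23, adjusted p = 0.00234 by edgeR) in SF-3-030+HDM against HDM. Over all genes tested, 3.43% were called higher and 6.06% lower.

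**Figure D5:**
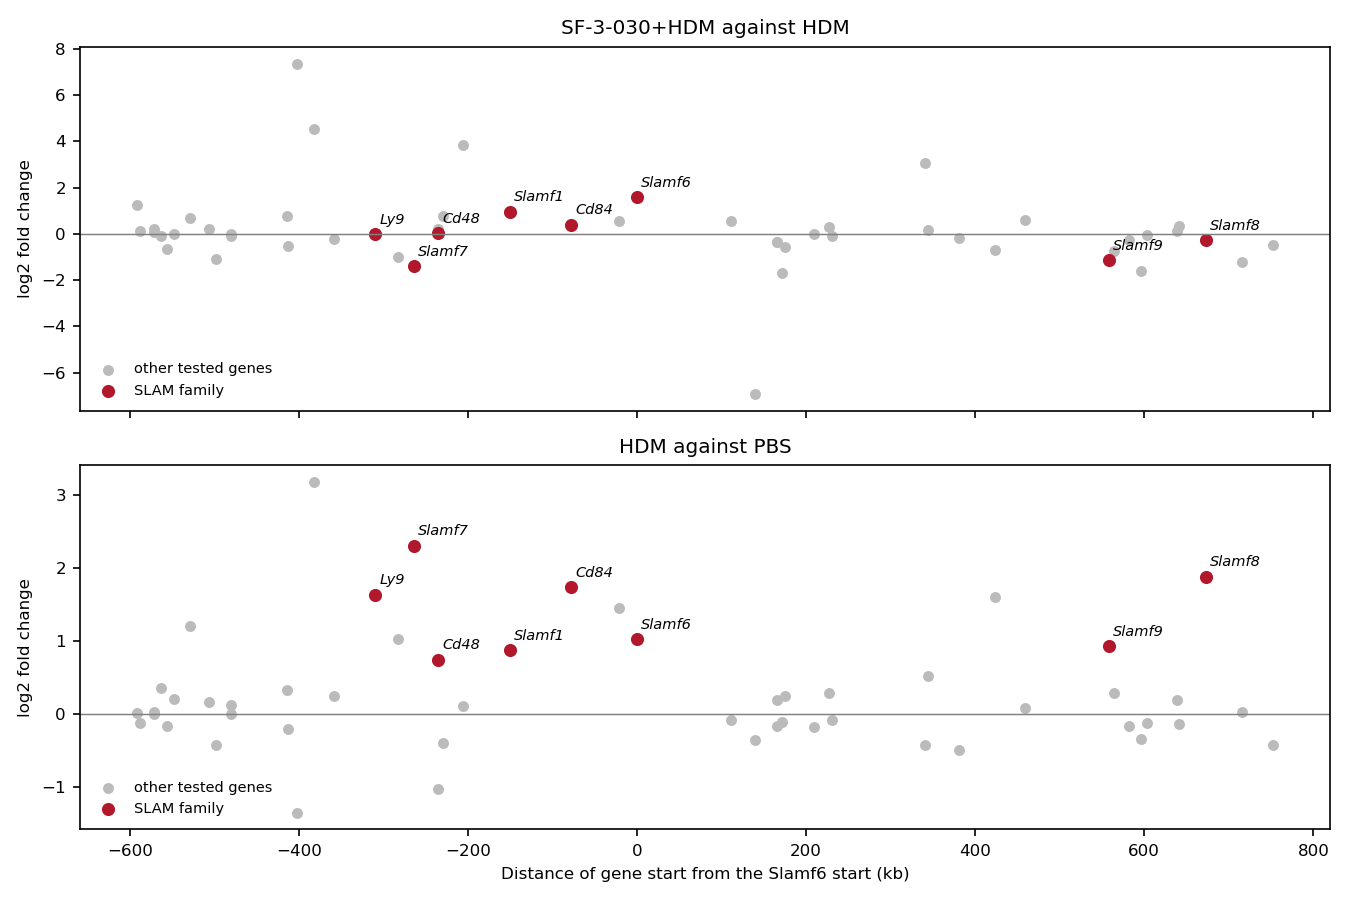
Log2 fold change (y axis) of tested genes by the distance of their start from the Slamf6 start (x axis, kb) in SF-3-030+HDM against HDM (top) and HDM against PBS (bottom), with SLAM family genes in red and other genes in grey. The red points lie on both sides of 0 in the upper panel, from -1.40 for Slamf7 to 1.57 for Slamf6, and all above 0 in the lower one.

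To show which other genes had the pattern of Slamf6 or Slamf7, likeness was measured over the 10 libraries on the log2 of CPM + 0.5. It was the root mean square difference after each gene was centred on its own mean. The candidates were 14407 genes with at least 1 CPM on average. Predicted genes, and immunoglobulin and T cell receptor segments, were left out of these 14407. Ffar1, a fatty acid receptor, was the most like Slamf6, with a difference of 0.187, followed by Slc16a6 (0.205), the B cell factor Pax5 (0.259), Il1a (0.274) and Siglecg (0.276), where Slamf6 itself varied by 1.06 around its mean. Pax5 was at 60.2 to 92.0 CPM in SF-3-030+HDM libraries, 20.1 to 26.2 CPM in HDM libraries and 10.2 to 18.8 CPM in PBS libraries. For Slamf7 the nearest were the class II gene H2-Eb2 (0.319), Cilp (0.326), the chemokine receptor Xcr1 (0.355), Zranb3 (0.370) and Oosp1 (0.371), where Slamf7 varied by 0.951. Xcr1, a marker of cross-presenting dendritic cells, was at 3.41 to 4.49 CPM in SF-3-030+HDM, 6.53 to 9.62 CPM in HDM and 1.62 to 4.09 CPM in PBS libraries. Clec9a, another marker of these cells, overlapped between the allergen groups, at 18.03 to 34.6 CPM in SF-3-030+HDM and 11.2 to 27.4 CPM in HDM libraries. Of the 7 dendritic cell markers, 1 rose and 1 fell in SF-3-030+HDM against HDM by edgeR. Within the family, Ly9 and Cd84 were the most alike (0.260), Slamf6 and Slamf7 differed by 1.16, and Slamf6 and Slamf9 were the farthest apart (1.29).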

How the data were processed

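RNA from whole lung was extracted with Trizol and a Direct-zol kit, and mRNA libraries were run on a HiSeq, per the labels' protocols. The submitters' processing notes name Trimmomatic 0.36, STAR 2.5.2b and the build GRCm38. How reads were counted, with which annotation and on which strand, is not given in the sources used here. Per the file headers, the deposited table has expected counts for each gene in each library. This expected count was rounded to whole numbers, with 34.4% of cells blank and read as 0. The table also holds log2 values that the authors normalised, which were not used. Summed counts were 38667118 to 59083942 per library. Precision is given as the spread between libraries.

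Rounded counts were fitted for all 10 libraries in 1 model in R 4.3.3 with edgeR 4.0.16 (filterByExpr, TMM scaling, quasi-likelihood test, two-sided, Benjamini-Hochberg adjustment over 26235 genes, threshold 0.05), checked on simulated data. The SE was taken as the log2 fold change divided by the root of its F statistic. Also tried were scaling by RLE or upper quartiles, the tools DESeq2 1.42.0 and limma-voom (limma 3.58.1), other filters on low counts, fits of only the 2 groups compared, a replicate block, leaving out each library, and leaving out or adjusting for libraries with Y-linked or olfactory receptor reads. CPM uses summed counts. Positions and exon lengths are from GENCODE M21, and promoters from RefSeq (GRCm38.p6). Genes named were the members, the signalling list, genes near the members, label checks and the 5 genes most like Slamf6 and Slamf7. The members, lists and motifs were chosen with earlier results of these data known. Patterns for NF-kB and interferon response elements were also searched at first and are not reported here. One gene of the B cell marker list was left out and is not reported here.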

Additional observations from a re-analysis of the deposited data

Results flagged for a closer look

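Of 26 genes (the SLAM family and its signalling list) examined in the 4 PBS libraries for a library far from the others, 4 were found, and chance alone gives about 1 in 20. For Slamf7, PBS replicate 2, at 11.2 CPM, lay apart by 0.961 of the group's range. For Sh2d1a, PBS replicate 3, at 0.600 CPM, lay apart by 0.879 of the range. For Fyn, PBS replicate 1 lay apart by 0.923 of the range, and for Csk, PBS replicate 1 lay apart by 0.989 of the range.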

How the results depend on the processing

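In HDM against PBS, 5 SLAM family members were called, against 8 with DESeq2, 3 with the replicate block, 3 without the Y-linked libraries, 3 without the 3 high-background libraries and 4 to 8 when each library was left out. Of 18 signalling genes, 4 were called, against 2 with upper-quartile scaling, 7 with DESeq2, 2 in a fit of only the 2 groups compared, 1 with the replicate block, 1 without the Y-linked libraries, 2 with Y-linked expression as a covariate, 2 without the high-background libraries and 2 to 6 when each library was left out. In SF-3-030+HDM against PBS, 7 of 18 were called, against 4 with upper-quartile scaling, 3 with the replicate block and 5 to 8 when each library was left out. Over all genes, the counts in HDM against PBS were 685, against 1466 with DESeq2, 272 with the block, 250 without the Y-linked libraries, 424 with the covariate, 243 without the high-background libraries and 303 to 913 when each library was left out. In SF-3-030+HDM against HDM they were 2491, against 5302 with DESeq2, 1349 with limma-voom, 881 with the block, 543 without the Y-linked libraries, 900 with the covariate and 629 to 3663 when each library was left out. In SF-3-030+HDM against PBS they were 7842, against 4930 with limma-voom, 2882 with the block and 3893 to 8327 when each library was left out. The cause was not tested. Upper-quartile scaling shifted the all-gene median to -0.151 for HDM against PBS, -0.186 for SF-3-030+HDM against HDM and -0.307 for SF-3-030+HDM against PBS. The block uses replicates 1 to 3 of each group, and the numbers did not pair the libraries, since libraries with equal numbers had correlations of -0.577 to 0.268 between their deviations over 9 pairs.

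Slamf6 lost its call in HDM against PBS in 12 of 21 alternatives, and Slamf8 in 3. The adjusted p of Slamf6 was 0.00204 with DESeq2, which kept the call. It ran from 0.00992 to 0.113 by edgeR when each library was left out. DESeq2 and the fit without PBS replicate 1 added Slamf1, Slamf9 and Cd48, with adjusted p of 0.00516, 0.0111 and 0.0331 by DESeq2. Split by direction, voom gave 814 higher and 535 lower in SF-3-030+HDM against HDM, where edgeR gave 901 and 1590. For SF-3-030+HDM against PBS it gave 2912 higher and 2018 lower, where edgeR gave 3101 and 4741 and upper-quartile scaling 2256 and 6108. In HDM against PBS, DESeq2 gave 1067 higher and 399 lower, where edgeR gave 608 and 77.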
